A study of Mus musculus with 2 samples.

Results

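The array carried probes whose target is named by an Ensembl transcript number (ENSMUST), by a tentative consensus number (TC) or by a NAP number. These probes were described here as a group of their own. They were chosen by the name that the array files give each probe. The choice also used a measured value: on both arrays, 50% or more of a probe's spots had to carry the scanner software's flag for signal well above background. Of 3704 such probes, 2089 met the rule, of 39429 non-control probes in all. These were 1201 ENSMUST, 228 TC and 660 NAP probes. An outlying spot removed 1 ENSMUST and 1 NAP probe, so that 2087 members had a difference between arrays, 7.91% of the 26387 probes measured on both.

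Whole lung was profiled on 2 one-colour arrays, 14 days after bleomycin given into the trachea at 1.25 mg/kg. Bleomycin injures the alveoli, and the injured lung scars. There was 1 array of a C57BL6/N sample and 1 of a C57BL6/N sample carrying an HSP27 overexpression transgene. Both were labelled male and 6 weeks old, and both were given bleomycin. The labels name neither the promoter of the transgene nor its species, and do not say whether a sample was 1 animal or a pool. The series title gives the question as the effect of HSP27, a small heat shock protein encoded by Hspb1, on pulmonary fibrosis in this model.

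An Ensembl transcript number denotes one transcript model of the Ensembl genome annotation, which holds protein-coding, noncoding and pseudogene models. A TC number denotes a consensus assembled from overlapping transcript sequences, among them expressed sequence tags, the short end reads of cDNA clones. The source of the NAP numbers is not given in the sources used here. Such probes extend an array beyond the curated RefSeq messenger RNAs, whose accessions start with NM_ and which formed the comparison set. The gene table used here, of RefSeq, held 0 of the 2087 member IDs. Members are therefore given by ID, with no gene, function, position or sequence stated for any of them.

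Signals were taken to log2 and scaled by subtracting each array's 75th percentile over non-control probes, which was 1287 for C57BL6/N and 1426 for the transgenic array. A difference is the transgenic minus the C57BL6/N value. With 1 array per group the spread between animals is unknown, no test between groups was possible and none was made. The spread between spots, from probes printed in several spots on the same 2 arrays, was an SD of 0.15 for the difference at a single spot. That value was for the dimmest of 3 groups of 105 probes. It was 0.057 in the middle group and 0.050 in the brightest. Variation from labelling and hybridization is not part of it. Only 2 ENSMUST, 0 TC and 0 NAP members were printed in several spots, against 308 measured NM_ probes. Well above background were 69.3% of probes for C57BL6/N and 69.5% for the transgenic array, and 0 spots were saturated.

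The labels and the tissue were checked first with RefSeq probes. The probe of Hspb1 read 41040 in C57BL6/N and 53554 in transgenic lung (0.24 on the log2 scale), and this mouse probe may not report the transgene. The lung markers Sftpc, the surfactant protein of alveolar type 2 cells, Scgb1a1 of club cells and Ager of alveolar type 1 cells were bright on both arrays, with the lowest signal at 15945. Xist, the RNA of the inactive X chromosome, had probes at 521 and 330 on the C57BL6/N array, neither of which carried the flag in transgenic lung. The Y-linked Ddx3y carried the flag on both arrays, at 508 and 2437, although both samples were labelled male. The C57BL6/N array thus held flagged signal of both Xist and Ddx3y. Markers of other tissues also differed. Both arrays measured 14 of 18 cardiac muscle markers, of which 11 exceeded 1.5-fold toward the transgenic array and 1 toward the other. The remaining 4 carried the flag on the transgenic array alone. Scaled log2 values of the 14 ran from -5.96 to 1.58 in C57BL6/N and from -6.31 to 3.79 in transgenic lung. All 6 measured adipose markers, 10 of 11 airway secretory markers and all 5 measured basal cell markers were higher by at least 1.5-fold, while 5 of 9 endothelial markers were lower by as much. Of 8 fibroblast markers 5 were higher by as much and 0 lower, and of 7 alveolar type 1 markers 3 were lower and 0 higher. Of 5 haematopoietic markers 1 was higher, and 0 of 8 alveolar type 2 markers passed 1.5-fold. Besides the measured ones, 4 adipose markers and 1 basal cell marker carried the flag on the transgenic array alone. These differences stood between the same 2 arrays as every member difference below, and their part in the member differences was not tested.

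The share of probes that reached the background threshold on both arrays was 53.0% for ENSMUST, 45.2% for TC and 70.8% for NAP probes, against 75.5% for NM_ probes. On the C57BL6/N array, the dimmest measured member read 12.1 among ENSMUST, 12.8 among TC and 14.95 among NAP probes. Probes just outside the threshold overlapped these values: the brightest ENSMUST probe without the flag on the C57BL6/N array read 17.4. The median signal of ENSMUST members was 138 for C57BL6/N and 128 for the transgenic array. That of TC members was 141 and 127. NAP members were of another brightness, with medians of 4209 and 5322, and reached 262701. NM_ probes had medians of 735 and 827. A signal reflects the binding of the probe as well as the amount of RNA, so that brightness served for matching and not as a level of expression. Each member was therefore set beside the 20 NM_ probes nearest to it in mean signal over both arrays.

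ENSMUST probes leaned toward lower signal in the transgenic lung. Their median log2 difference was -0.19, against -0.051 for the matched NM_ probes and -0.062 for all measured probes. Of 1200 members, 79 were at least 2-fold lower, which is 6.58%, against 3.36% of matched NM_ probes and 3.30% of all measured probes. At least 2-fold higher were 25 members, 2.08%, against 4.66% of matched NM_ probes and 3.40% of all. The lean was also present at 1.5-fold, with 265 members lower and 91 higher. As shares these were 22.1% and 7.58%, beside 12.1% and 11.9% of matched NM_ probes and 12.2% and 9.54% of all measured probes. A difference below 0 was found in 65.6% of members and 54.6% of matched probes, beside 56.2% of all. The central 95% of the ENSMUST differences ran from -1.27 to 0.97. With a normexp background correction, which adds an offset of 50 to every signal, the 2-fold counts were 13 lower and 14 higher, of 1199 members. Over all 26384 probes measured with normexp, 275 (1.04%) were at least 2-fold lower and 446 (1.69%) higher.

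TC probes resembled ENSMUST probes in brightness and in the direction of their lean. The median over 228 members was -0.17, against -0.048 for matched NM_ probes. At least 2-fold lower were 14 members (6.14%) and at least 2-fold higher 2 members (0.877%). In the matched NM_ probes these shares were 3.51% and 5.15%, the reverse order. At 1.5-fold, 48 TC members (21.1%) were lower and 12 (5.26%) higher, beside 12.3% and 12.4% of matched NM_ probes and 12.2% and 9.54% of all measured probes. Below 0 lay 66.7% of TC members and 54.2% of matched probes. The largest upward difference among TC members was 1.16, while NM_ probes reached 9.62. With normexp, 5 of 228 TC members were at least 2-fold lower, beside 1.04% of all measured probes.

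NAP probes leaned the other way. Their median over 659 members was 0.089, against -0.043 for matched NM_ probes. At least 2-fold higher were 26 members (3.95%) and at least 2-fold lower 6 (0.910%), whereas matched NM_ probes were at 2.52% and 1.85%. The share higher was near the 3.40% of all measured probes and the 3.67% of all NM_ probes, while 3.30% of all measured probes were lower. The excess of 1.43 percentage points over the matched share was 0.759 with the single nearest NM_ probe, 0.280 against all NM_ probes and 0.215 without a filter on dim probes. At 1.5-fold, 99 members were higher and 34 lower, which is 15.02% and 5.16%, beside 8.03% and 8.19% of matched NM_ probes and 9.54% and 12.2% of all. Below 0 lay 38.2% of NAP members and 55.2% of matched probes. All 3 classes together had a median of -0.066, close to that of all measured probes, with 99 members at least 2-fold lower and 53 higher. The joint value thus hid classes that leaned in opposite directions. Of the members past 2-fold in either direction 65.1% were lower, beside 49.2% of all measured probes past 2-fold. This share was 54.3% with scaling to the median in place of the 75th percentile, beside 41.4% of all measured probes past 2-fold. The majority was lost with a stricter filter on dim probes (49.4%), with normexp (33.9%) and above the median signal (27.3%). Over all measured probes past 2-fold the share lower was then 45.8%, 38.1% and 42.9%. For ENSMUST members the share lower was 76.0%. It was 65.3% after cyclic loess, 52.9% above the median signal and 48.1% with normexp. Beside these stood 42.9%, 42.9% and 38.1% of all measured probes past 2-fold.

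**Figure D1:**
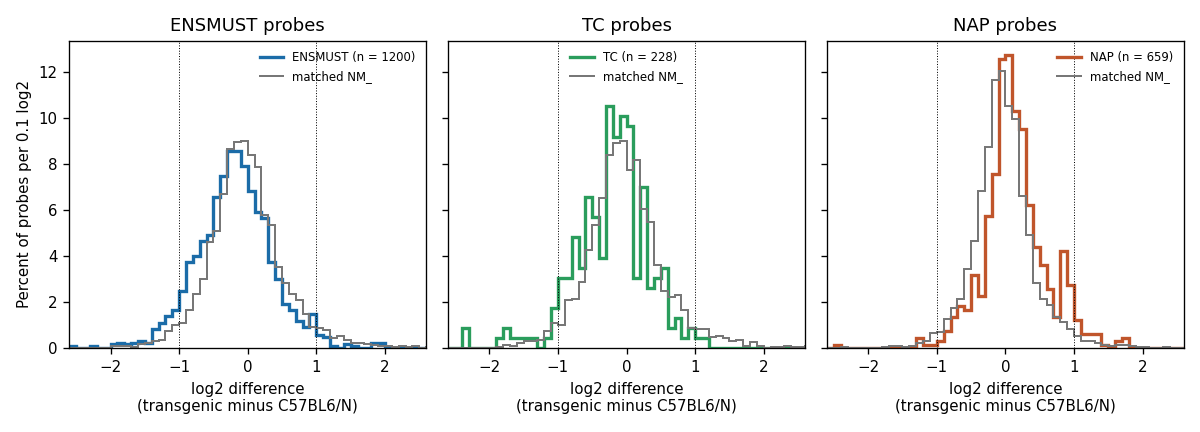
Distribution of log2 differences (transgenic minus C57BL6/N, x axis) as the percent of probes per 0.1 log2 (y axis) for ENSMUST, TC and NAP members, with the 20 nearest NM_ probes of each member in grey; dotted lines mark 2-fold. The ENSMUST and TC curves lie left of the grey curves (medians -0.19 and -0.17) and the NAP curve lies right of its own (0.089); differences beyond 2.6 are outside the axis.

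The extremes were given by a rule that asked for the 2 largest differences per class and direction among members whose brighter value lay above the 25th percentile. The largest difference of any member was that of ENSMUST00000081816. It read 175 in C57BL6/N and 22245 in transgenic lung, 115-fold higher after scaling. ENSMUST00000153865 read 15.9 and 178, a log2 difference of 3.34. These were the only ENSMUST members past 4-fold upward. With normexp ENSMUST00000153865 was at 1.60, under 4-fold, and a stricter filter on dim probes left it out. In the other direction, ENSMUST00000022544 read 2038 in C57BL6/N and 391 in transgenic lung, 5.78-fold lower. ENSMUST00000066505 read 4702 and 1323, a difference of -1.98. The rule left out the dimmer ENSMUST00000077150, which read 81.5 and 19.2, a larger difference of -2.23. Each of the named ENSMUST transcripts except ENSMUST00000153865 was measured by a single usable probe.

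Among TC members, TC1607839 read 131 in C57BL6/N and 27.9 in transgenic lung, 5.21-fold lower. Its difference of -2.38 was -1.08 with normexp, and a stricter filter on dim probes left it out. TC1600567 read 298 and 91.7, a difference of -1.85. Only 2 TC members were at least 2-fold higher, and both were close to that threshold. TC1661930 read 111 and 275 (1.16), and with normexp it was at 0.84. TC1777321 read 1198 and 2711 (1.03).

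Among NAP members, NAP060970-1 stood apart on the lower side. It read 2261 in C57BL6/N and 470 in transgenic lung, 5.33-fold lower. The next, NAP030094-1, read 401 and 184, a difference of -1.27. On the higher side the leading members lay close together. NAP111412-1 read 843 and 3139, and one of the probes of NAP102340-1 read 670 and 2493, both at 1.75. The 10 highest NAP members lay between 1.36 and 1.75, none of them in the dimmest band of signal.

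**Figure D2:**
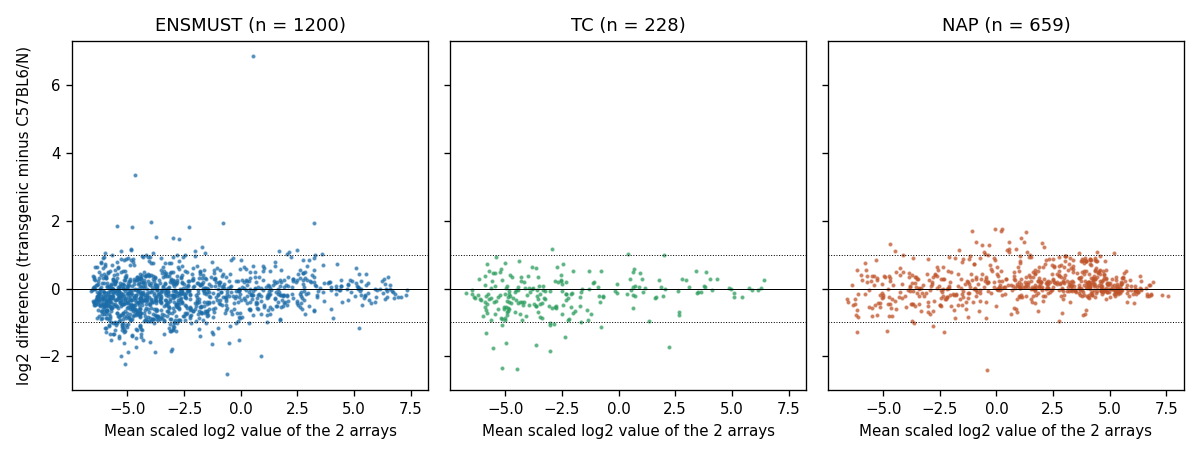
Log2 difference (transgenic minus C57BL6/N, y axis) against the mean scaled log2 value over both arrays (x axis) for every member, one point per probe; dotted lines mark 2-fold. ENSMUST and TC members lie mostly at low values with a spread toward negative differences, NAP members mostly at high values, and a single ENSMUST member lies at 6.84.

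The lean of each class varied with brightness. All measured probes were divided into 4 equal bands by mean signal, and the same limits were used for members and NM_ probes. In the dimmest band, 559 ENSMUST members had a median of -0.27 and 8.77% were at least 2-fold lower, against -0.058 and 4.57% for NM_ probes. In the second band the ENSMUST median was -0.20, with 21 of 300 lower. In the third it was -0.13, with 5.26% lower against 1.71% of NM_ probes. In the brightest band it was -0.024, with 1 of 189 members at least 2-fold lower and 6 higher. The ENSMUST lean was thus large in dim probes and near the NM_ median of -0.057 in the brightest ones. Of the 79 ENSMUST members at least 2-fold lower, 49 were in the dimmest band and 9 in the upper 2 bands.

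TC members also had their lower medians in the dimmer bands, without a steady order over the 4 bands. Their median was -0.27 in each of the dimmer 2 bands, over 104 and 61 members, and 0.029 and -0.021 in the brighter 2, over 28 and 35. NAP members differed in where their lean lay. Their median was -0.12 over 87 members of the dimmest band and -0.020 over 97 of the second. It was 0.18 over 111 members of the third band, where 15 (13.5%) were at least 2-fold higher and 1 was lower, against 2.27% of NM_ probes higher. In the brightest band it was 0.12 over 364 members, with 8 higher and 0 lower. Of the 26 NAP members at least 2-fold higher, 23 lay in the upper 2 bands. With normexp the count was 23 of all 659 NAP members, beside 1.69% of all measured probes.

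A second feature of the NAP members, noticed in their distribution and counted afterwards, was a small peak just below 2-fold. Between log2 differences of 0.8 and 1.0 lay 31 of the 364 NAP members of the brightest band (8.52%), from 31 different NAP numbers. In the same range lay 58 of 5159 NM_ probes of that band (1.12%), 5 of 189 ENSMUST members and 1 of 35 TC members. The 31 NAP members read from 2514 to 27131 on the C57BL6/N array. Whether these probes share a target was not tested, since their sequences were not used here.

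**Figure D3:**
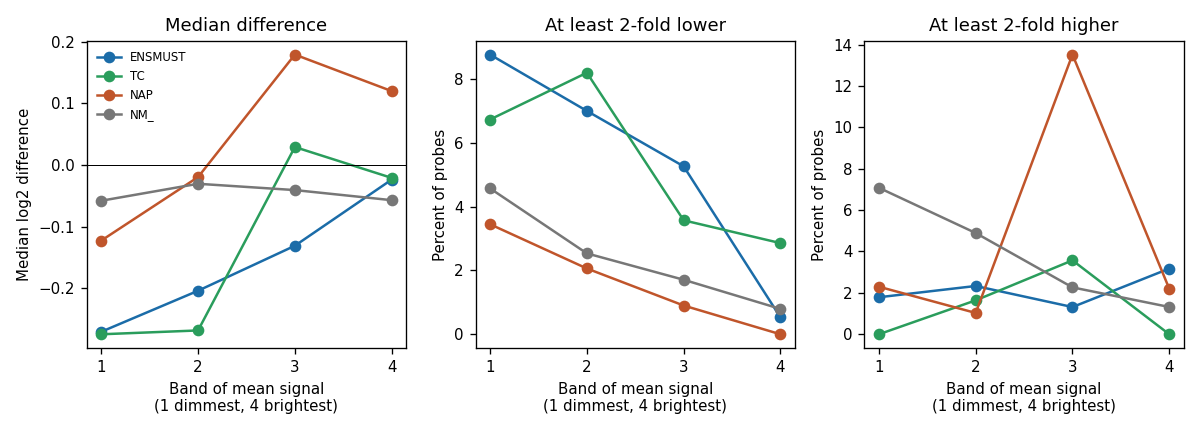
Median log2 difference (left), percent of probes at least 2-fold lower (middle) and at least 2-fold higher (right) on the transgenic array, by band of mean signal from 1 (dimmest) to 4 (brightest), for ENSMUST, TC, NAP and NM_ probes. ENSMUST medians run from -0.27 in the dimmest band to -0.024 in the brightest, and NAP probes have 13.5% at least 2-fold higher in the third band.

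Probes that reached the background threshold on 1 array alone were not members, and they were counted apart. Among ENSMUST probes 105 (4.63%) did so on the C57BL6/N array alone and 52 (2.29%) on the transgenic array alone. Over all non-control probes these shares were 2.32% and 2.50%, and NM_ probes had the opposite order, with 412 on the C57BL6/N array alone and 640 on the transgenic array alone. Among TC probes the counts were 26 (5.16%) and 17 (3.37%), both shares above those of all non-control probes. Among NAP probes they were 20 (2.15%) and 16 (1.72%), both below. A remaining 910 ENSMUST, 233 TC and 236 NAP probes did not reach the threshold on either array. For a probe measured on 1 array, a bound was its value there minus a floor on the other array, the lowest flagged signal or the probe's own signal if that was higher. ENSMUST00000169242, at 97.0 on the C57BL6/N array, was 8.08-fold lower on the transgenic array, set against its own unflagged signal of 13.3 there. NAP094492-001, at 119 on the transgenic array, was at least 8.96-fold higher there. NAP028510-1 was 6.32-fold lower, set against its own unflagged signal of 12.6, and TC1720248 was at least 3.26-fold lower. TC1669794 was 5.15-fold higher on the transgenic array, set against its own unflagged signal of 12.9 on the other. Bounds of at least 2-fold were reached by 24 of the 105 ENSMUST probes on the C57BL6/N array alone (22.9%) and by 15 of the 52 on the transgenic array alone (28.8%). Over all such probes the shares were 26.0% and 34.1%, so that the larger ENSMUST count went with a larger number of probes and not with a larger share.

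Several transcripts were measured by more than 1 usable probe, which gave a check that a single probe cannot. There were 83 such transcripts, 45 ENSMUST, 5 TC and 33 NAP. In 65 of them all probes lay on the same side of 0. The median gap between the lowest and the highest probe of a transcript was 0.15, and 1 transcript had a gap above 1. ENSMUST transcripts had all probes below 0 in 24 cases and all above 0 in 16. The share below 0 among these 40 was 60.0%, near the 60.8% of 2561 NM_ transcripts whose several probes lay on the same side. The lower lean of ENSMUST probes was therefore not seen in this subset. NAP transcripts had all probes above 0 in 17 cases and all below in 4, a share above 0 of 81.0% beside 39.2% for NM_ transcripts.

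Of these 83, TC1600187 was the only transcript whose probes were all at least 2-fold lower. Its probes read 50.5 and 184 in C57BL6/N and 16.6 and 64.3 in transgenic lung, at differences of -1.76 and -1.67. With normexp these were -0.57 and -0.98. NAP102340-1 was the only one whose probes were all at least 2-fold higher. Its second probe read 1543 and 3864, a difference of 1.18. ENSMUST00000180041 had 3 probes, at -0.79, -1.16 and -1.25, although their signals on the C57BL6/N array ran from 213 to 2431. ENSMUST00000178312 had 3 probes between -0.63 and -0.61, the narrowest spread among transcripts with 3 probes. ENSMUST00000051301 had 3 probes between -0.83 and -0.57, and ENSMUST00000179907 had 3 usable probes between -0.82 and -0.60. Other transcripts with 3 usable probes did not run lower. Those of ENSMUST00000171235 were all above 0, at 0.079, 0.18 and 0.55. The probes of ENSMUST00000094754 (-0.26 to 0.037) and of NAP113099-1 (-0.27 to 0.37) lay on both sides of 0. ENSMUST00000153865 had the widest gap, with usable probes at 0.99 and 3.34. A further probe of it read 84.5 on the transgenic array and carried no flag on the other, at least 6.38-fold higher. Its probes therefore shared a direction and differed in size.

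**Figure D4:**
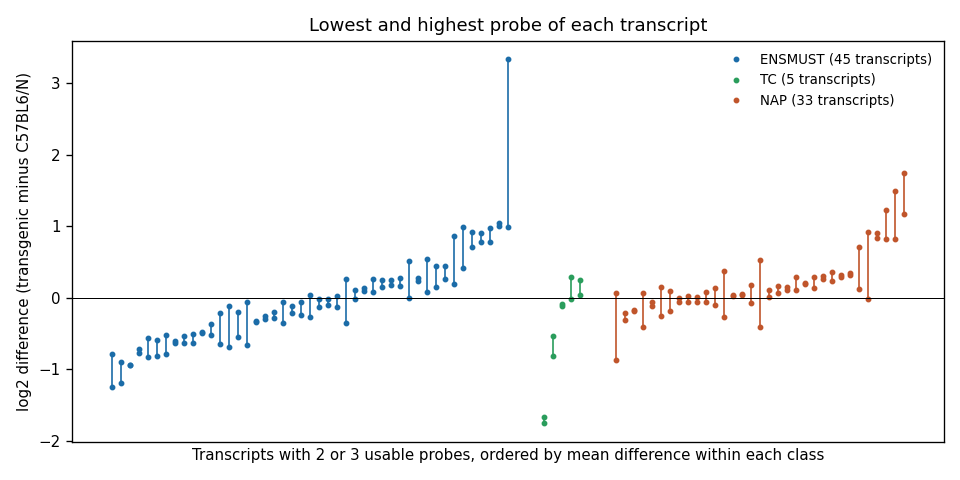
Lowest and highest log2 difference (transgenic minus C57BL6/N, y axis) among the usable probes of each of the 83 transcripts with 2 or 3 such probes, joined by a line, ordered by mean within each class along the x axis. Most lines are short (median gap 0.15), and the longest belongs to ENSMUST00000153865.

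Within classes, members were divided by the form of their ID, a split made after the values were seen. Ensembl transcripts numbered at or above 100000 had a median of -0.23 over 742 members, and 62 (8.36%) were at least 2-fold lower. Their matched NM_ probes were at -0.053 and 3.46%. Transcripts with lower numbers had a median of -0.12 over 458 members, and 17 (3.71%) were at least 2-fold lower, against -0.048 and 3.21% for their matched probes. The 2 sets also differed in brightness, with a median mean value of -3.69 for the higher and -2.40 for the lower numbers, and 50.9% and 39.5% of them in the dimmest band. Within that band 10.3% of the higher-numbered members were at least 2-fold lower, against 4.71% of their matched probes, and 5.52% of the lower-numbered, against 5.08%. In the second band 9.60% of the higher-numbered members were at least 2-fold lower, against 2.75% of their matched probes. Of the lower-numbered members in that band 1.96% were, against 2.79% of their matched probes. In the third band the excesses over matched probes were 2.90 and 3.38 percentage points, on 4 members each. In the brightest band 0 of 85 and 1 of 104 were at least 2-fold lower. NAP names with a 1-digit ending had a median of 0.10 over 473 members and those with a 3-digit ending 0.058 over 186.

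Members were also divided by the number that opens each Agilent probe name, here called its series. In the series numbered 55, which held 872 ENSMUST, 209 TC and 544 NAP members, the medians were -0.20, -0.17 and 0.076, against -0.075 for NM_ probes of that series. With the matching done within each series, the ENSMUST median was 0.13 below that of matched NM_ probes and the NAP median 0.16 above. Over 4 blocks of rows on the slide the ENSMUST median ran from -0.21 to -0.17 and the NAP median from 0.050 to 0.16. The TC median ran from -0.29 to -0.084.

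Other probes without an NM_ accession were compared in the same way. Predicted RefSeq transcripts (XM_ or XR_) had 8.32% of 565 probes at least 2-fold lower, against 3.05% of their matched NM_ probes, with medians of -0.098 and -0.048. Noncoding RefSeq transcripts (NR_) had 4.98% of 603 lower, against 3.08%, and a median of -0.11. Probes named by cDNA clone or another accession had 10.7% of 1807 lower, against 3.39%, and a median of -0.29. Probes named only by their own probe name had 3.61% of 1274 lower, against 2.44%, and a median of -0.026 against -0.040. The ENSMUST and TC shares lay between those of the NR_ and XM_ or XR_ probes. A lower lean was thus not particular to ENSMUST and TC probes. Of the 7 classes compared, 2 had a median above that of their matched probes, NAP by 0.13 and the probes named by themselves by 0.014.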

How the data were processed

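Per the file headers, the authors' 2 deposited array files give an intensity for each spot, written by Agilent Feature Extraction 11.5.1.1. That software subtracted the background and removed trends over the slide in the processed signal; it did not normalize the arrays to each other. The deposited table of the series is an intensity on a linear scale and equalled the processed signal within 0.1% for each of the 39022 and 39020 probes compared that have 1 spot. The Trizol-extracted RNA was amplified and labelled with Cy3, per the labels.

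Control and outlying spots were left out, and spots of a probe were averaged on the log2 scale. The members and the lists were chosen with earlier results of these data known. Members were set beside the 20 nearest NM_ probes in mean signal, 10 on either side, without random draws; an NM_ probe could serve several members. Named members followed the rule on the 2 largest differences per class and direction, the transcripts with most probes and the largest bounds. Marker genes were found through RefSeq accessions without version in a table of assembly GRCm38.p6, where 26165 of 26584 NM_ probes had a symbol. Steps were tested on simulated data. The software was R 4.3.3, limma 3.58.1 and Python 3.11.15 with scipy 1.17.1, numpy 2.4.6, matplotlib 3.10.9 and pandas 2.3.3. Normexp used median signals and left out 7 spots whose local background was at or above their signal.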

Additional observations from a re-analysis of the deposited data

How the results depend on the processing

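No paired analysis was possible because each group holds 1 array, and leaving out an array leaves no comparison. Dim probes set the limits: the results rest on signals near background for many ENSMUST and TC probes. Under scaling to the median or to the 75th percentile over probes well above background, quantile normalization, cyclic loess, outlying spots kept, the deposited table and 1 value per transcript, every count stayed within 1.5 times, and every median and matched difference kept its sign. The matched differences also kept their sign with the single nearest NM_ probe, with 20 bins of mean signal and within probe-name series. These scalings moved the median of all measured probes from -0.062 to at most -0.0072.

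With normexp, ENSMUST counts past 2-fold were 14 higher and 13 lower, with a median of -0.13, which was -0.070 relative to matched NM_ probes. The share lower exceeded the matched share by 0.484 percentage points and the share higher differed by -0.196. TC had 5 lower, and its share higher differed by -0.482. NAP had 2 lower. Without a filter on dim probes, counts higher and lower were 97 and 240 for ENSMUST, 17 and 49 for TC, and 45 and 39 for NAP. The classes then held 2267, 503 and 931 probes. Over all 39411 probes in that setting, 5.53% were at least 2-fold higher and 5.59% lower. Medians of the 3 classes were -0.077, -0.075 and -0.0048, and relative to matched probes -0.016, -0.013 and 0.055. The ENSMUST share higher differed by -4.76 percentage points. The NAP median thus changed sign, and its share lower, below the matched share otherwise, exceeded it by 0.902. With the stricter filter, ENSMUST had 15 higher and 30 lower, TC 7 lower and NAP 3 lower. The classes then held 641, 124 and 572 probes. Over all 19789 probes in that setting, 2.75% were at least 2-fold higher and 2.32% lower. The ENSMUST and TC medians were -0.12 and -0.10, and -0.078 and -0.060 relative to matched probes; the ENSMUST share higher differed by -0.780.

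Probes above the median mean signal were taken alone as an alternative chosen after seeing the data. Of all 13193 such probes, 1.97% were at least 2-fold higher and 1.48% lower. ENSMUST then had 8 higher and 9 lower, with a median of -0.066, or -0.0054 relative to matched probes. Its share lower exceeded the matched share by 1.16 percentage points, and its share higher turned to an excess of 0.762. TC had 1 higher and 2 lower, with a median of -0.014, which turned to 0.040 relative to matched probes, and its share higher differed by -0.238. NAP had 1 lower and an excess of 3.43 higher. Against all NM_ probes, unmatched, the ENSMUST share higher differed by -1.58, and the NAP excess higher fell from 1.43 to 0.280; it was 0.215 without the filter on dim probes. The cause of these shifts was not tested, beyond the number of probes that each filter keeps.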
